A study of Mus musculus with 30 samples.

Results

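The transcripts examined here were those of 7 genes of the nitric oxide (NO) and cGMP pathway: the NO synthases Nos1, Nos2 and Nos3, the NO receptor subunits Gucy1a3 and Gucy1b3, the cGMP-dependent protein kinase Prkg1 and the phosphodiesterase Pde5a. They were taken by gene symbol, and all 7 were found among the 41128 genes of both count tables, 1 of the aorta and 1 of the kidney. Male mice carried a tamoxifen-inducible Cre under the smooth muscle myosin heavy chain promoter (SMMHC, the gene Myh11). In knockout (KO) mice both Egfr alleles were floxed, so that the EGF receptor was deleted in vascular smooth muscle cells, and wild-type (WT) controls carried the Cre without loxP sites. All mice, WT and KO, received tamoxifen on 5 days, and diets began 7 days later at 6 weeks of age and ran for 18 weeks as standard-fat diet (SFD) or high-fat diet (HFD). The strain background in the labels was C57Bl6J. There were 14 aortae (3 WT-SFD, 4 WT-HFD, 3 KO-SFD and 4 KO-HFD) and 16 kidneys (4 in each group), 1 library per mouse and tissue, and 3 mice gave both tissues. Libraries are numbered within each group of a tissue, values are listed in that order, and the numbers do not pair mice across groups or tissues.

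In vessels, endothelial NO synthase (Nos3) makes NO from arginine, and NO diffuses to the smooth muscle cell and activates soluble guanylyl cyclase, a dimer of an alpha subunit (Gucy1a3) and a beta subunit (Gucy1b3). The cGMP so formed activates protein kinase G (Prkg1), which lowers cell calcium and the calcium sensitivity of contraction, and Pde5a breaks cGMP down. Neuronal NO synthase (Nos1) is made in nerves and in the macula densa of the kidney, and inducible NO synthase (Nos2) appears mainly on inflammatory stimulation.

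Total counts per library ran from 6403699 to 13052870 in the aortae and from 16354880 to 28331314 in the kidneys. Protein-coding genes held 42.56 to 63.86% of the counts in the aortae and 85.18 to 86.56% in the kidneys. In WT aortae that share ran from 42.56 to 55.51% and in KO aortae from 49.48 to 63.86%. Levels are given as FPM (fragments of a gene per 1000000 fragments of the library, after TMM scaling within each tissue). The labelled tissues carried their markers. In the aortae the smooth muscle gene Acta2 averaged 6954 FPM while Umod of the thick ascending limb was at 0 in every library, and in the kidneys the proximal tubule gene Kap averaged 16010 FPM and Umod 4490 FPM. As bulk tissue was sequenced, fewer cells of a type and less RNA per cell cannot be told apart. Of the 6 SFD aortae, 4 stood apart by adipocyte transcripts although the vessels had been freed of fat.

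The summed level of 16 adipocyte markers was 6054, 4692 and 248.1 FPM in WT-SFD aortae 1, 2 and 3. KO-SFD aortae 1, 2 and 3 held 3774, 1329 and 233.1 FPM. In the 8 HFD aortae it ran from 179.5 to 420.7 FPM. The most abundant of these markers was Lpl at a mean of 357.2 FPM, no marker was at 0, and 13 of 16 were called lower on HFD. Both genotypes thus held SFD aortae rich in adipocyte transcript (WT-SFD 1 and 2, KO-SFD 1 and 2) and 1 poor in it (WT-SFD 3, KO-SFD 3), and no HFD aorta was rich in it. In the kidneys the same sum was 917.7 to 1391 FPM in WT-SFD and 524.5 to 817.9 in WT-HFD. It was 956.3 to 2026 FPM in KO-SFD and 510.9 to 916.0 in KO-HFD. Every SFD kidney thus lay above every HFD kidney in this sum, although the mean log2 CPM of the markers overlapped between diets. The renal sum was led by Lpl and Pnpla2, with 186680 and 57628 counts over all kidneys, beside 2267 for Adipoq and 2863 for Plin1. The part of adipocyte RNA in it was not tested. Of 15 tested markers 1 was called higher and 3 lower on HFD.

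Egfr itself, the targeted gene, was measured over the whole gene, so that transcript from cells other than smooth muscle and transcript that lacks the deleted part were counted too. In the aortae its level was 46.7, 39.5 and 54.3 FPM in WT-SFD, 65.1, 57.0, 51.2 and 57.0 FPM in WT-HFD, 26.8, 35.5 and 28.01 FPM in KO-SFD and 27.5, 40.6, 39.7 and 33.4 FPM in KO-HFD. On each diet all KO aortae lay below all WT aortae, and the genotype effect averaged over diets was a log2 fold change of -0.67 (SE 0.11, adjusted p = 0.0141 by the quasi-likelihood test of edgeR, Benjamini-Hochberg adjusted over all tested genes). Without KO-SFD aorta 1 or 3 the adjusted p was 0.0514 or 0.0948, without WT-SFD aorta 3 and KO-SFD aorta 3 together it was 0.114, and with library totals in place of TMM scaling 0.214 (log2 fold change -0.49). In whole kidney, of which vascular smooth muscle is a small part, Egfr averaged 50.4 ± 8.13, 45.9 ± 8.30, 53.6 ± 5.77 and 43.1 ± 2.09 FPM (SD, n = 4) in WT-SFD, WT-HFD, KO-SFD and KO-HFD.

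Per kb of exon, the receptor subunits were the most abundant members in the aorta. Gucy1b3 averaged 28.3 ± 5.54 FPM per kb (SD over 14 libraries), Gucy1a3 27.4 ± 3.62, Pde5a 20.0 ± 3.61, Nos3 9.46 ± 1.87 and Prkg1 5.99 ± 0.563. Nos1 at 0.134 ± 0.0478 and Nos2 at 0.118 ± 0.156 FPM per kb were far lower. The order of neighbours held in all 14 libraries for Gucy1a3 over Pde5a, Pde5a over Nos3 and Prkg1 over Nos1, in 12 for Nos3 over Prkg1, in 10 for Gucy1b3 over Gucy1a3 and in 9 for Nos1 over Nos2, and the last 2 pairs did not differ beyond their spread.

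In the kidney Nos3 led with 3.20 ± 0.437 FPM per kb (SD over 16 libraries), followed by Gucy1a3 at 2.39 ± 0.662, Gucy1b3 at 1.55 ± 0.363 and Pde5a at 0.585 ± 0.114. Nos2 averaged 0.192 ± 0.0696, Prkg1 0.0770 ± 0.0373 and Nos1 0.0739 ± 0.0218 FPM per kb. Prkg1 was above Nos1 in 8 of 16 kidneys, so those levels did not differ beyond their spread, whereas Gucy1b3 over Pde5a and Pde5a over Nos2 held in all 16. The tissues were scaled separately, and their levels are set side by side without a test.

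**Figure D1:**
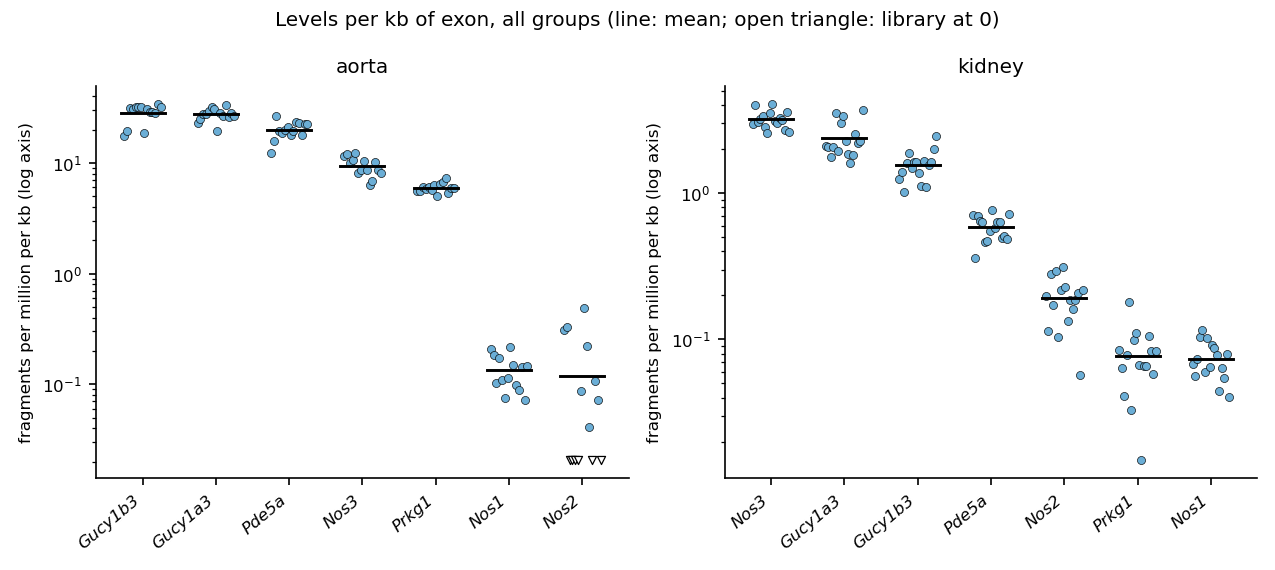
Levels of the 7 members per kb of exon in 14 aortae and 16 kidneys, in FPM per kb on a log axis with a different range in each panel (points are libraries, lines are means, open triangles are libraries at 0). In the aorta Prkg1 sits with the receptor, Pde5a and Nos3 well above Nos1 and Nos2, whereas in the kidney it lies at the level of Nos1.

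All 7 members passed the filter on low counts in both tissues. At an adjusted p under 0.05, edgeR called 0 of 7 members in every aortic comparison. Over all 14796 genes tested there it called 0% for HFD against SFD in WT, 0% for HFD against SFD in KO, 0.0811% for KO against WT on SFD, 0.0811% for KO against WT on HFD, 3.79% for the diet effect averaged over genotypes, 0.196% for the genotype effect averaged over diets and 0% for the interaction of diet and genotype. At an unadjusted p under 0.05 there were 2, 0, 1, 0, 3, 1 and 0 members in these 7 comparisons, and DESeq2 called 0 members in each. Leaving out 1 aorta moved the share of all genes called for the averaged diet effect between 0% and 12.1% (the latter without WT-SFD aorta 3). Over all genes the 3 comparisons with no edgeR call had 2464, 1106 and 606 genes at an unadjusted p under 0.05, and DESeq2 called 639, 8 and 0.

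In the kidney 1 of 7 members was called, Gucy1a3, which was higher on HFD in the diet effect averaged over genotypes, where 4.48% of the 15034 genes tested were called. The other 6 comparisons called 0 of 7 members. The background was 0.911% for HFD against SFD in WT, 2.3% for HFD against SFD in KO, 0.0133% for KO against WT on SFD, 0.00665% for KO against WT on HFD, 0.0133% for the averaged genotype effect and 0% for the interaction. In those 6 comparisons 1, 2, 0, 0, 0 and 0 members had an unadjusted p under 0.05, and DESeq2 called 0. For the kidney interaction, edgeR found 486 of all genes at an unadjusted p under 0.05 and DESeq2 called 0 genes. The median log2 fold change of the 7 members for the averaged diet effect was 0.031 (aorta) and 0.093 (kidney), beside -0.0049 and -0.0058 over all genes tested. A p above the threshold does not show that groups were alike.

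**Figure D2:**
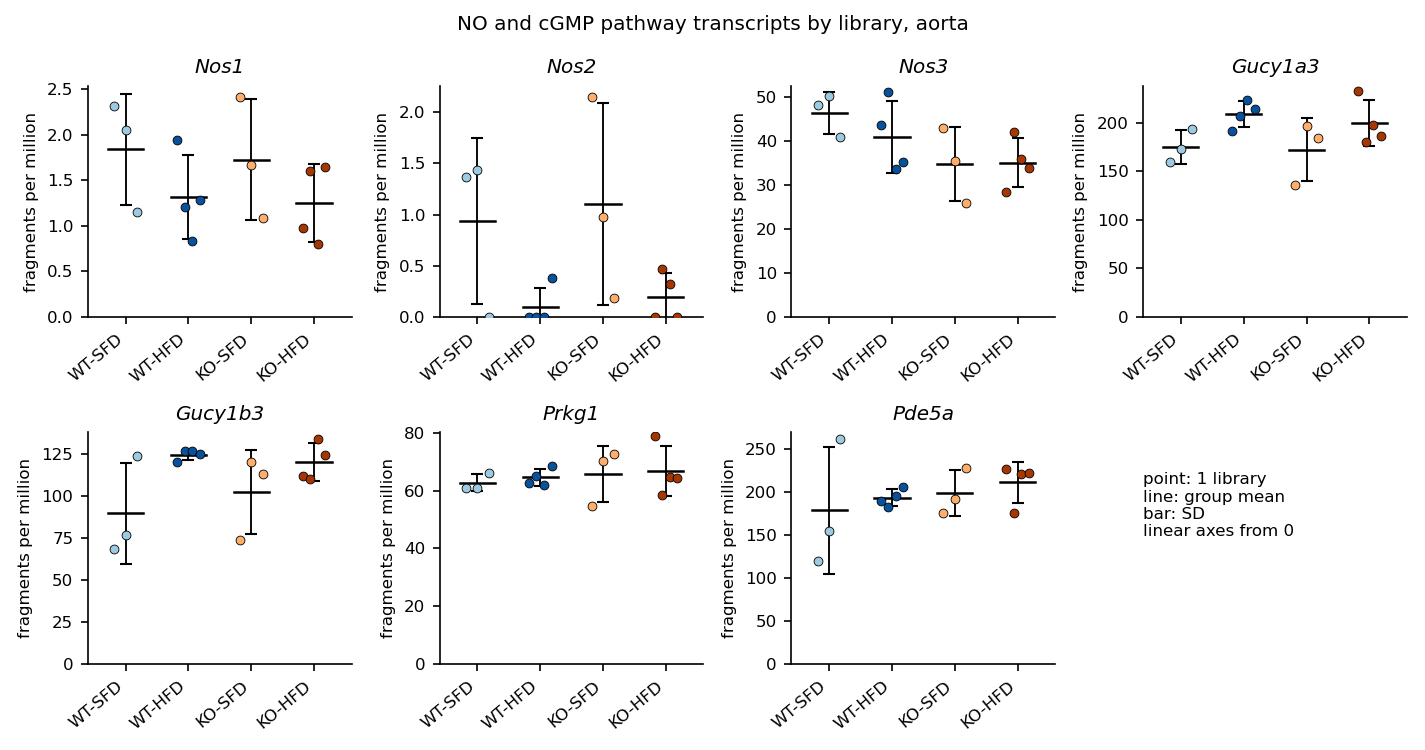
FPM of the 7 members in each of 14 aortae by group (points are libraries, lines group means, bars SD, linear axes from 0). The groups overlap for every member, and the spread is widest in the SFD groups for Nos2, Gucy1b3 and Pde5a.

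Among the synthases, endothelial Nos3 was the abundant one in the aorta. It stood at 48.2, 50.2 and 41.0 FPM in WT-SFD, 43.6, 51.2, 33.6 and 35.3 FPM in WT-HFD, 42.9, 35.4 and 26.0 FPM in KO-SFD and 28.5, 42.1, 35.9 and 33.8 FPM in KO-HFD. The lowest values were those of KO-SFD 3 and KO-HFD 1 and the highest those of WT-HFD 2 and WT-SFD 2, and the groups overlapped on both diets. The averaged genotype effect was a log2 fold change of -0.32 (SE 0.13) with an unadjusted p of 0.0259 and an adjusted p of 0.705 by edgeR, and on SFD alone it was -0.42 (SE 0.20, adjusted p = 0.804). Without KO-SFD aorta 3 both values were -0.21, and leaving out 1 aorta at a time gave -0.41 to -0.21 averaged and -0.60 to -0.21 on SFD. The endothelial marker Pecam1 averaged 398 FPM in the aortae, and the summed level of the 9 endothelial markers with counts was 1005, 966.2, 962.5 and 910.3 FPM as group means of WT-SFD, WT-HFD, KO-SFD and KO-HFD. In the averaged genotype effect 6 of these 9 markers had a negative sign (median -0.13, 3 at an unadjusted p under 0.05, 0 called). Of the other lists in the aortic genotype effect, 7 of 7 leucocyte markers had a positive sign (median 0.55, 3 at an unadjusted p under 0.05). So did 5 of 5 red blood cell markers (0.65) and 6 of 6 smooth muscle markers (0.14, 0 at an unadjusted p under 0.05). In the adipocyte list 16 of 16 markers had a negative sign (-0.78). Signs were mixed in the nerve and Schwann cell list, with 3 of 5 negative (median -0.90, 1 at an unadjusted p under 0.05). They were mixed in the pericyte and mesangial list too, with 5 of 7 positive (median 0.11, 2 at an unadjusted p under 0.05). In any list 0 were called. The part of endothelial RNA and of these cell types in the Nos3 and Egfr values was not tested. The averaged diet effect on Nos3 was -0.082 (SE 0.13, adjusted p = 0.794), with the adipocyte marker mean as a covariate 0.14, and without KO-SFD aorta 1 0.0090.

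Kidney Nos3 ranged from 10.6 to 16.9 FPM, with group means of 13.7 ± 1.91 in WT-SFD, 12.7 ± 1.84 in WT-HFD, 13.96 ± 1.99 in KO-SFD and 12.5 ± 1.799 in KO-HFD (SD, n = 4). The averaged diet effect was -0.13 on the log2 scale (SE 0.10, adjusted p = 0.529 by edgeR), and leaving out 1 kidney at a time gave -0.17 to -0.082. The 4 group means of renal Nos3 lay within 1 SD of each other.

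Inducible Nos2 was close to absent in most aortae. Its counts were 10, 14 and 0 in WT-SFD, 0, 0, 0 and 3 in WT-HFD, 16, 7 and 2 in KO-SFD and 0, 5, 4 and 0 in KO-HFD, and 6 of 14 libraries were at 0. The 4 aortae with 7 or more counts were WT-SFD 1 and 2 and KO-SFD 1 and 2, which also carried the most adipocyte transcript. On average over genotypes the diet effect was a log2 fold change of -2.76 (SE 0.86, adjusted p = 0.0930 by edgeR), a fitted value that depends on very few counts. In WT it was -3.33 (SE 1.30, adjusted p = 0.208). Without WT-SFD aorta 3, which had 0 Nos2 counts and few adipocyte transcripts, these became -3.03 (adjusted p = 0.0186) and -3.87 (adjusted p = 0.0487). Without WT-HFD aorta 4, which held all 3 Nos2 counts of its group, they became -4.16 (adjusted p = 0.0848) and -6.14 (adjusted p = 0.179), and leaving out 1 aorta at a time gave -4.16 to -2.28 averaged and -6.14 to -2.86 in WT. With the adipocyte marker mean as a covariate the signs turned, to 0.43 averaged and 0.28 in WT.

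In the kidney Nos2 was found in every library, at 4 to 36 counts, and its group means were 0.841 ± 0.303, 1.03 ± 0.419, 0.783 ± 0.178 and 0.733 ± 0.325 FPM in WT-SFD, WT-HFD, KO-SFD and KO-HFD (SD, n = 4). For diet the averaged log2 fold change was 0.093 (SE 0.28, adjusted p = 0.902), leaving out 1 kidney at a time gave 0.0041 (without WT-HFD 4) to 0.23 (without KO-HFD 3), and at these counts small differences were not detectable.

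Neuronal Nos1 had 8 to 20 counts per aorta and 9 to 28 per kidney. Aortic levels were 2.32, 2.05 and 1.16 FPM in WT-SFD, 1.94, 1.21, 0.834 and 1.28 FPM in WT-HFD, 2.41, 1.67 and 1.09 FPM in KO-SFD and 0.978, 1.60, 0.800 and 1.64 FPM in KO-HFD. The 3 highest were KO-SFD 1 and WT-SFD 1 and 2, all rich in adipocyte transcript, and the groups overlapped. The summed nerve and Schwann cell markers were 133.9 FPM in WT-SFD 1 and 48.9 FPM in KO-SFD 1, beside 19.8 to 32.8 FPM in the other 12 aortae, and all 5 tested had a negative sign for diet (median -0.99, 2 at an unadjusted p under 0.05, 0 called). The part of nerve content in the aortic Nos1 values was not tested. The averaged diet effect on Nos1 was -0.47 (SE 0.30, adjusted p = 0.440 by edgeR) in the aorta and -0.093 (SE 0.23, adjusted p = 0.872) in the kidney. Leaving out 1 aorta at a time gave -0.59 to -0.31. In the kidney, Umod and Slc12a1 of the thick ascending limb, the macula densa genes Ptgs2 and Pappa2, Ren1 and Akr1b7 were tested beside Nos1. Of these 6 genes 1 was called lower on HFD and 0 higher.

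The receptor subunits included the 1 member called. Gucy1a3 and Gucy1b3 (the symbols in the tables; current names Gucy1a1 and Gucy1b1) are neighbours on mouse chromosome 3, at chr3:82092427-82145789 and chr3:82032006-82074689 in GENCODE vM21 on GRCm38, both on the minus strand and 17737 bases apart. To set the called Gucy1a3 beside the partner of its dimer, the bases that precede their outermost annotated starts are shown, from RefSeq promoter windows on GRCm38.p6 at chr3:82145790-82145900 and chr3:82074712-82074961, written 5′ to 3′ on the minus strand. Capitals mark the GC box letters GGGCGG and the CCAAT letters, searched on both strands (ATTGG is CCAAT on the other strand), and no marked run overlaps another.
Gucy1a3: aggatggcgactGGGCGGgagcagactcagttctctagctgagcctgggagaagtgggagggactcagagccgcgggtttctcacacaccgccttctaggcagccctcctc
Gucy1b3: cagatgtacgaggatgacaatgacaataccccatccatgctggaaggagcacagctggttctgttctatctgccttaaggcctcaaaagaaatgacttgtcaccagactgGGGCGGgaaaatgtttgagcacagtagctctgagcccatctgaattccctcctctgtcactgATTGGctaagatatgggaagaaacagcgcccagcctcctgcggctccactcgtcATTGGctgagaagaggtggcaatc
Each stretch held 1 GC box match, and that of Gucy1b3 held 2 CCAAT matches. Among the 32817 mouse promoter windows of 300 bases, 35.6% held GGGCGG and 37.4% held CCAAT, so such matches are common. Neither 300-base window had TATAAA, found in 13.6% of windows, or a CArG box, the binding motif of serum response factor, found in 1.63%. The E-box letters CANNTG, found in 72.3% of windows, matched 1 time in the Gucy1a3 window and 3 times in that of Gucy1b3.

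In the kidney Gucy1a3 rose on HFD. It stood at 14.7, 14.3, 12.4 and 14.4 FPM in WT-SFD and at 24.5, 13.6, 21.1 and 23.6 FPM in WT-HFD, and at 15.96, 12.9, 11.3 and 12.7 FPM in KO-SFD and 17.8, 15.3, 15.95 and 25.8 FPM in KO-HFD. In WT, 3 of 4 HFD kidneys lay above all SFD kidneys and HFD kidney 2 below 3 of them. In KO, HFD kidneys 2 and 3 lay just below the highest SFD kidney and the other 2 above all SFD kidneys. Averaged over genotypes, HFD against SFD gave a log2 fold change of 0.54 (SE 0.13, adjusted p = 0.0282 by edgeR), which is 1.45-fold, with 0.57 (SE 0.19) in WT and 0.50 (SE 0.19) in KO. Leaving out 1 kidney at a time gave 0.47 to 0.73 in WT and 0.31 to 0.61 in KO, where the lowest value was that without KO-HFD kidney 4. Neither genotype alone passed the adjusted threshold (adjusted p = 0.285 and 0.200), and the interaction had an adjusted p of 1.0.

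The call on renal Gucy1a3 was close to the threshold. Leaving out 1 kidney at a time kept it higher on HFD by 0.44 to 0.62 on the log2 scale, but the adjusted p passed 0.05 in 9 of 16 such fits, those without WT-SFD kidney 2 (0.0501) or 3 (0.0574), WT-HFD kidney 1 (0.0719), 3 (0.0508) or 4 (0.0630), KO-SFD kidney 2 (0.0540), 3 (0.0571) or 4 (0.0554), or KO-HFD kidney 4 (0.0569). With the adipocyte marker mean as a covariate the log2 fold change was 0.53 with an adjusted p of 0.0533, and DESeq2, which called 6.31% of the genes it adjusted, gave 0.53 with an adjusted p of 0.00571. In all of these fits Gucy1a3 was higher on HFD.

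Renal Gucy1b3 did not pass the threshold. It stood at 4.88, 5.47, 4.01 and 6.28 FPM in WT-SFD, 7.40, 5.87, 6.37 and 6.40 FPM in WT-HFD, 5.40, 4.37, 6.49 and 4.32 FPM in KO-SFD and 6.08, 6.45, 7.85 and 9.60 FPM in KO-HFD. In each genotype 3 of 4 SFD kidneys lay below all HFD kidneys, and WT-SFD 4 and KO-SFD 3 lay in the HFD range. Over both genotypes the log2 fold change was 0.44 (SE 0.13, adjusted p = 0.0669 by edgeR), and in KO it was 0.54 (SE 0.18, adjusted p = 0.156). DESeq2 gave an adjusted p of 0.0298, and edgeR gave 0.0492, 0.0390 and 0.0484 without kidney WT-SFD 4, KO-SFD 3 or KO-HFD 1.

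Marker lists of renal cell types other than adipocytes are given beside the receptor. Of the 9 endothelial markers tested 0 were called on HFD, of 5 smooth muscle markers 0, of 6 fibroblast markers 0 and of 7 leucocyte markers 0, and of 7 pericyte and mesangial markers 1 was called lower. The median log2 fold changes of these lists were 0.069, -0.13, 0.10, 0.26 and 0.051. The summed levels by group were 503.2, 520.9, 492.3 and 526.4 FPM for the endothelial markers and 152.2, 144.7, 151.4 and 145.3 FPM for the pericyte and mesangial markers in WT-SFD, WT-HFD, KO-SFD and KO-HFD. The part of cell composition in the Gucy1a3 result was not tested beyond these counts.

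**Figure D3:**
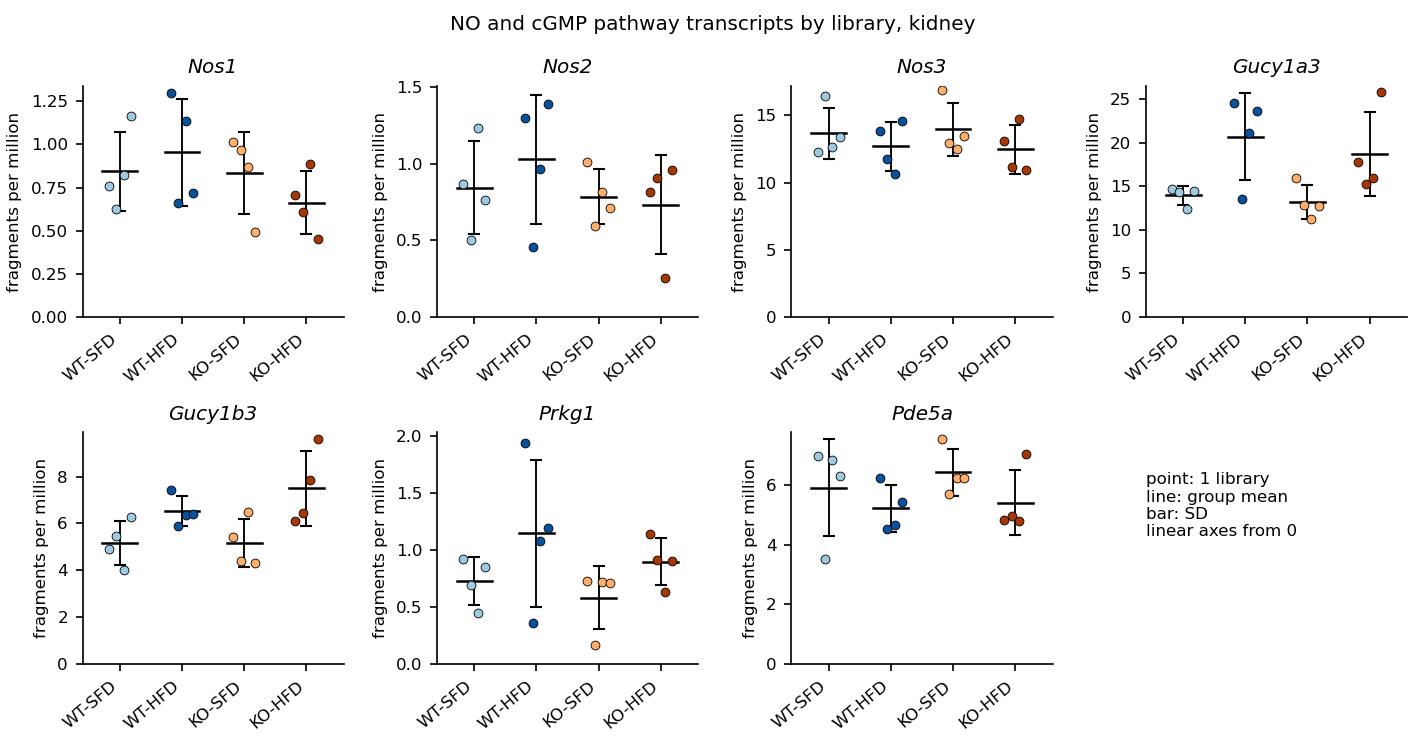
FPM of the 7 members in each of 16 kidneys by group (points are libraries, lines group means, bars SD, linear axes from 0). The group means of Gucy1a3 and Gucy1b3 are higher on HFD in both genotypes, and groups overlap for every member.

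In the aorta Gucy1a3 stood at 159.3, 172.3 and 193.3 FPM in WT-SFD, 191.1, 206.4, 223.6 and 213.8 FPM in WT-HFD, 135.7, 196.8 and 183.6 FPM in KO-SFD and 232.7, 180.3, 197.7 and 186.2 FPM in KO-HFD. The 3 lowest were KO-SFD 1 and WT-SFD 1 and 2, the most adipocyte-rich, and the groups overlapped. Its averaged diet effect was 0.23 on the log2 scale (SE 0.095, adjusted p = 0.202), and 0.12 with the adipocyte covariate.

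Aortic Gucy1b3 encodes the partner subunit and stood at 68.1, 76.7 and 124.2 FPM in WT-SFD, 120.1, 126.6, 126.6 and 125.1 FPM in WT-HFD, 73.7, 120.1 and 113.3 FPM in KO-SFD and 112.1, 110.2, 134.2 and 124.5 FPM in KO-HFD. The 3 low values were those of WT-SFD 1 and 2 and KO-SFD 1, with the 3 highest adipocyte sums, and the other 11 aortae lay between 110.2 and 134.2 FPM on either diet. Averaged, the diet effect was 0.35 (SE 0.14, adjusted p = 0.172) and that in WT 0.48 (SE 0.19, adjusted p = 0.223). Without WT-SFD aorta 3 these were 0.51 (adjusted p = 0.00621) and 0.79 (adjusted p = 0.00623), in fits that called 12.1% and 11.7% of all genes. Leaving out 1 aorta at a time gave 0.26 to 0.51 averaged and 0.31 to 0.79 in WT, with adjusted p by edgeR up to 0.394 and 0.63. With the adipocyte covariate the averaged value was 0.074 (adjusted p = 0.955).

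**Figure D4:**
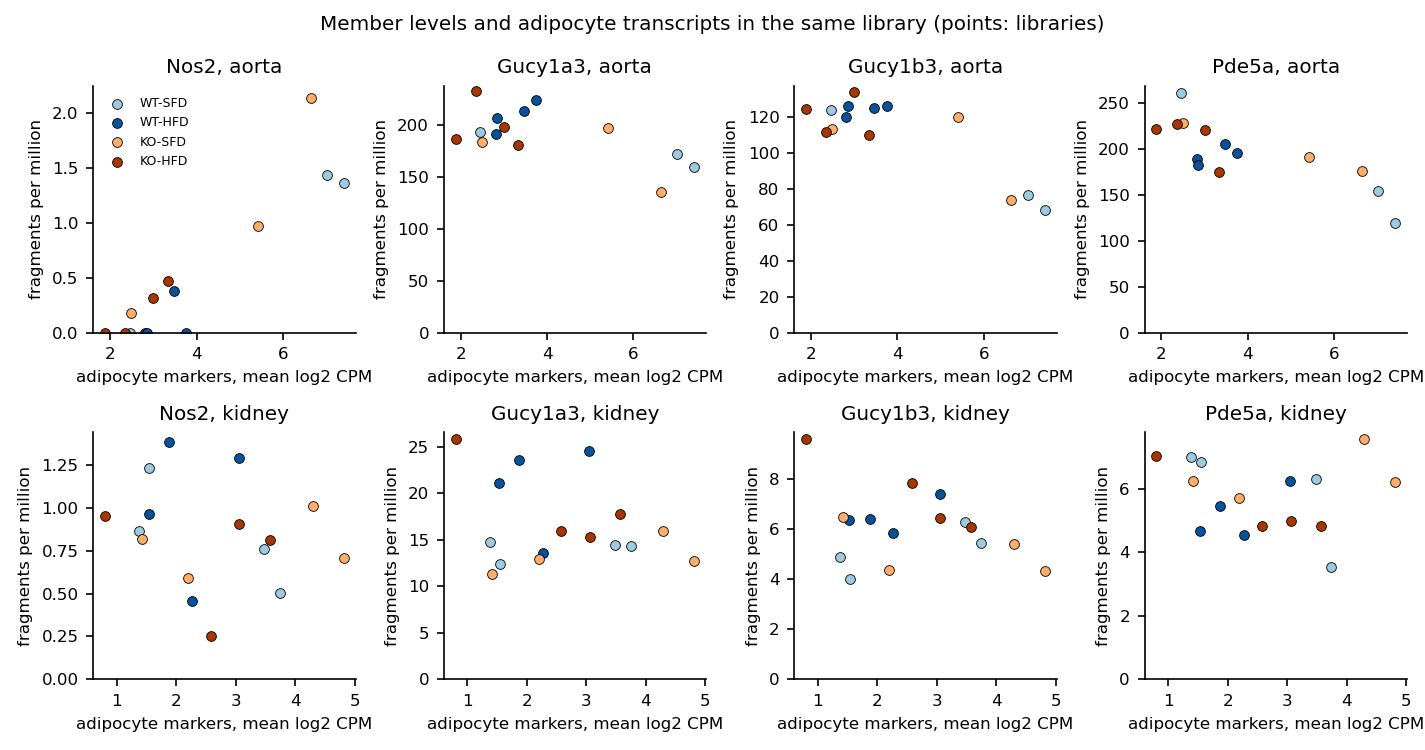
FPM of Nos2, Gucy1a3, Gucy1b3 and Pde5a against the mean log2 CPM of 16 adipocyte markers in the same library, aortae above and kidneys below (points are libraries coloured by group, FPM axes from 0). The adipocyte-rich aortae on the right are all SFD and hold the 4 highest Nos2 and the 3 lowest Gucy1b3 values. In the kidneys the diets overlap in the marker mean from 1.38 to 3.57, with 3 SFD kidneys above and 1 HFD kidney below that range. In the summed FPM of these markers, which is not shown here, the diets do not overlap in the kidneys.

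The balance of the 2 receptor subunits was compared within libraries, as the log2 ratio of Gucy1a3 to Gucy1b3 counts, which needs no scaling between libraries. In the aorta it averaged 1.01 ± 0.32 in WT-SFD (SD, n = 3), 0.74 ± 0.068 in WT-HFD (n = 4), 0.76 ± 0.10 in KO-SFD (n = 3) and 0.73 ± 0.23 in KO-HFD (n = 4). In the kidney it averaged 1.45 ± 0.20, 1.63 ± 0.29, 1.36 ± 0.38 and 1.31 ± 0.23 (n = 4 each). The mean ratio on HFD minus that on SFD was -0.15 (aorta) and 0.064 (kidney), and KO minus WT was -0.13 (aorta) and -0.21 (kidney). None of these 4 differences passed a two-sided exact permutation test with labels exchanged within the other factor (p = 0.190 and 0.650 for diet and 0.270 and 0.169 for genotype, adjusted over the 4 tests 0.36 and 0.650 for diet and 0.36 and 0.36 for genotype). Without WT-SFD aorta 3 the aortic diet difference was -0.25 (exact permutation p = 0.0362, unadjusted), and without KO-HFD aorta 1 it was -0.21 (exact permutation p = 0.0414, unadjusted). Without KO-SFD kidney 3 the renal diet difference was -0.031 and the renal genotype difference -0.11, and leaving out 1 library at a time gave genotype differences of -0.22 (without WT-SFD aorta 3) to -0.078 (without WT-SFD aorta 1) in the aorta and -0.28 to -0.11 in the kidney.

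The kinase Prkg1, through which cGMP relaxes smooth muscle, was at 61.0, 61.0 and 66.1 FPM in WT-SFD, 62.8, 65.1, 62.1 and 68.4 FPM in WT-HFD, 54.7, 70.2 and 72.6 FPM in KO-SFD and 79.0, 58.6, 64.9 and 64.6 FPM in KO-HFD. All 14 aortae lay between 54.7 and 79.0 FPM, and the groups overlapped. The averaged diet effect was 0.031 on the log2 scale (SE 0.084, adjusted p = 0.889), and its sign turned with the adipocyte covariate (-0.081) and without KO-SFD aorta 1 (-0.026) or KO-HFD aorta 1 (-0.0014).

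In the kidney Prkg1 had only 3 to 42 counts per library. It stood at 0.922, 0.691, 0.445 and 0.852 FPM in WT-SFD, 1.94, 0.357, 1.08 and 1.195 FPM in WT-HFD, 0.723, 0.162, 0.716 and 0.710 FPM in KO-SFD and 1.14, 0.909, 0.633 and 0.905 FPM in KO-HFD. The fitted averaged diet effect was 0.65 (SE 0.32, adjusted p = 0.306), and the SE of Gucy1a3 was 0.13. WT-HFD kidney 2 was the lowest of its group in both Prkg1 and Gucy1a3, and WT-HFD kidney 1 the highest in both. In WT-SFD, too, the lowest kidney was the same for both genes, and so was the highest. In KO-SFD the highest matched and the lowest did not, and in KO-HFD neither matched.

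The phosphodiesterase Pde5a removes the cGMP that the receptor makes. In the aorta it stood at 119.8, 154.8 and 261.9 FPM in WT-SFD, 189.2, 182.7, 196.1 and 205.9 FPM in WT-HFD, 176.3, 191.7 and 228.5 FPM in KO-SFD and 227.2, 175.5, 221.0 and 222.3 FPM in KO-HFD. WT-SFD held both the lowest aorta (number 1) and the highest (number 3). For diet the averaged value was 0.10 (SE 0.14, adjusted p = 0.761), and it was -0.0076 without WT-SFD aorta 1 and -0.22 with the adipocyte covariate. When both adipocyte-poor SFD aortae, WT-SFD 3 and KO-SFD 3, were left out it was 0.36 (adjusted p = 0.0201), in a fit that called 15.8% of all genes.

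Kidney Pde5a was 6.99, 3.52, 6.85 and 6.32 FPM in WT-SFD, 6.25, 4.54, 4.66 and 5.45 FPM in WT-HFD, 7.57, 5.71, 6.24 and 6.23 FPM in KO-SFD and 4.83, 4.98, 4.81 and 7.04 FPM in KO-HFD. In KO, 3 of 4 HFD kidneys lay below all SFD kidneys and KO-HFD 4 among them, and in WT the groups overlapped. The averaged diet effect was -0.22 (SE 0.14, adjusted p = 0.458).

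**Figure D5:**
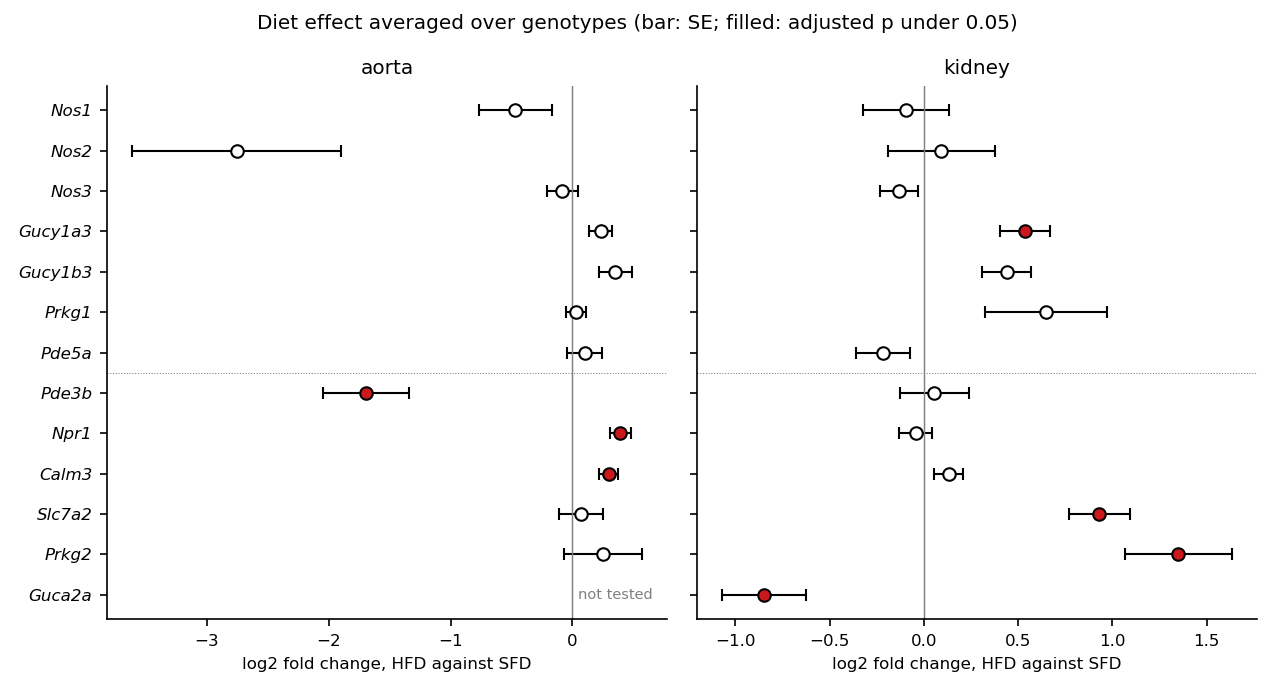
Log2 fold change on HFD against SFD averaged over genotypes in aorta and kidney, with SE, for the 7 members (above the dotted line) and the 6 other pathway genes called in either tissue (filled points are at an adjusted p under 0.05, and the panels have different axes). Gucy1a3 in the kidney is the only filled member at 0.54, and Prkg2 in the kidney reaches 1.35.

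The wider pathway was followed in 66 further genes: partners of NO synthase, tetrahydrobiopterin and arginine supply, other receptors that make cGMP, kinase substrates, and other phosphodiesterases and exporters. In the aorta 50 were tested and 0 were called in HFD against SFD within either genotype, in either genotype comparison within a diet, in the averaged genotype effect or in the interaction. At an unadjusted p under 0.05 these comparisons held 13, 5, 2, 3, 3 and 1 genes. Over all 14796 genes tested they held 2464, 1106, 908, 746, 1021 and 606. For the averaged diet effect 2 were called higher and 1 lower, beside 3.79% of all genes called in either direction. At an unadjusted p under 0.05 it held 19 of the 50, beside 2733 of all genes tested. A positive sign was found for 30 of 50 with a median of 0.099, beside 49.1% and -0.0049 over all genes tested.

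Aortic Npr1, the receptor for atrial natriuretic peptide and itself a guanylyl cyclase, was higher on HFD. It stood at 145.2, 162.3 and 200.3 FPM in WT-SFD, 237.0, 258.4, 232.1 and 214.6 FPM in WT-HFD, 158.1, 206.7 and 197.0 FPM in KO-SFD and 236.5, 241.1, 221.5 and 230.8 FPM in KO-HFD. All HFD aortae lay above all SFD aortae, the adipocyte-poor WT-SFD 3 and KO-SFD 3 included. The lowest values were those of WT-SFD 1, KO-SFD 1 and WT-SFD 2, which also held the least smooth muscle and red blood cell transcript. The averaged log2 fold change was 0.39 (SE 0.088, adjusted p = 0.0275 by edgeR). It was 0.24 with the adipocyte covariate (adjusted p = 0.833) and 0.40 with library totals in place of TMM (adjusted p = 0.164), and of the 14 fits that left out 1 aorta 3 kept the call (those without WT-SFD 3, KO-SFD 2 or KO-SFD 3), with adjusted p from 0.00176 to 0.0963.

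Calm3, 1 of the 3 calmodulin genes, whose protein NO synthases need, was 169.9, 156.7 and 200.1 FPM in WT-SFD, 229.5, 233.8, 248.6 and 224.4 FPM in WT-HFD, 172.3, 217.0 and 179.1 FPM in KO-SFD and 209.0, 233.4, 208.8 and 210.8 FPM in KO-HFD. The WT groups did not overlap and the KO groups did. The lowest values were again those of WT-SFD 2, WT-SFD 1 and KO-SFD 1, low in smooth muscle and red blood cell transcript. Averaged, the log2 fold change was 0.30 (SE 0.078, adjusted p = 0.0455), it was 0.24 with the adipocyte covariate (adjusted p = 0.833), 0.30 with library totals (adjusted p = 0.256) and 0.32 with no low count filter (adjusted p = 0.0643), and 2 of 14 fits without 1 aorta kept the call (without WT-SFD 3 or KO-SFD 2), with adjusted p from 0.00702 to 0.145.

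Pde3b, a phosphodiesterase abundant in adipocytes that also binds cGMP, was 142.6, 129.7 and 20.5 FPM in WT-SFD, 24.6, 27.9, 19.4 and 19.8 FPM in WT-HFD, 97.1, 42.2 and 25.7 FPM in KO-SFD and 19.2, 21.7, 29.5 and 18.3 FPM in KO-HFD. The high values were those of the 4 adipocyte-rich SFD aortae, and WT-SFD 3 and KO-SFD 3 lay in the HFD range. The averaged log2 fold change was -1.69 (SE 0.35, adjusted p = 0.0236). It was -0.29 with the adipocyte covariate (adjusted p = 0.891), and 3 of 14 fits without 1 aorta kept the call (without WT-SFD 3, KO-SFD 2 or KO-SFD 3), with adjusted p from 0.000214 to 0.0963.

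In the kidney 55 of the 66 genes were tested. For the averaged diet effect 2 were called higher and 1 lower, beside 4.48% of all genes. A positive sign was found for 26 of 55 with a median of -0.043, beside 48.6% and -0.0058 over all genes tested. HFD against SFD in KO called 1, Slc7a2, and the other 5 comparisons called 0, with 5, 3, 2, 4 and 0 genes at an unadjusted p under 0.05 for HFD against SFD in WT, KO against WT on SFD, KO against WT on HFD, the averaged genotype effect and the interaction. Over all 15034 genes tested those 5 comparisons held 1188, 1258, 248, 856 and 486.

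Slc7a2, a transporter that brings arginine, the substrate of NO synthase, into cells, had the smallest adjusted p of these. It stood at 4.55, 2.07, 3.02 and 3.23 FPM in WT-SFD, 6.25, 4.64, 7.05 and 6.02 FPM in WT-HFD, 2.94, 3.13, 2.97 and 3.33 FPM in KO-SFD and 4.50, 5.15, 5.95 and 8.65 FPM in KO-HFD. Within each genotype every HFD kidney lay above every SFD kidney. HFD against SFD, averaged, gave a log2 fold change of 0.93 (SE 0.16, adjusted p = 0.00227), which is 1.91-fold, and it was called in all 16 fits that left out 1 kidney and with the adipocyte covariate (0.84, adjusted p = 0.00405). In KO alone it was 0.97 (SE 0.23, adjusted p = 0.0344), and 9 of 16 such fits kept that call, with adjusted p up to 0.136. In the aorta Slc7a2 was at 40.5 to 85.0 FPM.

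Prkg2, a membrane-bound cGMP kinase found in epithelia, rose from 0.651, 0.503, 0.720 and 0.269 FPM in WT-SFD to 1.43, 0.868, 1.54 and 1.72 FPM in WT-HFD, and from 0.627, 0.485, 0.307 and 0.164 FPM in KO-SFD to 0.759, 1.04, 0.696 and 1.56 FPM in KO-HFD. The diets did not overlap in either genotype. Its averaged log2 fold change was 1.35 (SE 0.28, adjusted p = 0.00975), and it was called in all 16 fits without 1 kidney and with the adipocyte covariate (1.24, adjusted p = 0.0184). The levels are low, so that each value rests on few counts.

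Guca2a encodes guanylin, a peptide that activates a membrane guanylyl cyclase, whose gene had only 5 counts over all 16 kidneys. Guca2a was lower on HFD. It stood at 2.01, 2.95, 1.71 and 2.33 FPM in WT-SFD, 0.972, 1.94, 1.25 and 1.53 FPM in WT-HFD, 2.41, 4.90, 3.07 and 2.24 FPM in KO-SFD and 1.36, 0.995, 2.34 and 1.46 FPM in KO-HFD. In each genotype 1 HFD kidney lay in the SFD range. The averaged log2 fold change was -0.85 (SE 0.22, adjusted p = 0.0377), 5 of 16 fits without 1 kidney kept the call with adjusted p up to 0.0790, and with the adipocyte covariate it was -0.89 (adjusted p = 0.0436).

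No pathway gene was called for genotype. Among the smallest p values for the averaged genotype effect were those of Spr and Ddah2 in the aorta and Calm2 in the kidney. Spr, sepiapterin reductase of tetrahydrobiopterin synthesis, had a log2 fold change of -0.44 (SE 0.13, adjusted p = 0.526), and Ddah2, which degrades methylated arginines, -0.28 (SE 0.11, adjusted p = 0.703). In the kidney the calmodulin gene Calm2 had a log2 fold change of 0.17 (SE 0.063, adjusted p = 0.851).

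For each member the 3 tested genes with the most similar profile were found, by the root mean square difference of log2 CPM after centring each gene on its own mean over the 14 aortae or 16 kidneys. In the aorta Gucy1a3 lay nearest to Fam115a (0.060 log2 units, beside 0.19 for its own spread), Scrn1 and Gpr107, and Gucy1b3 to Rcn3 (0.088, own spread 0.31), Plxdc2 and Myh10. Pde5a lay nearest to Ppp1r12a (0.11, own spread 0.27), Myh11 and C2cd2, and Prkg1 to Ralgapa1, Shprh and Pogz. Nos3 lay nearest to Ss18l1, Fbxo4 and Fgd5 (0.14 to 0.15, own spread 0.28) and Nos2 to Pex11a, Slc22a23 and Ptger3 (0.45 to 0.48, own spread 1.22). Nos1 lay nearest to Gm10233, Gm10171 and X2410127L17Rik. These points share libraries and the adipocyte-rich SFD aortae, and no test was made.

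In the kidney Gucy1a3 lay nearest to Fbln5 (0.16 log2 units, own spread 0.36), Thbd and Abca8a, and Gucy1b3 to Abca8a (0.16, own spread 0.32), Igfbp3 and Sema3g, so that Abca8a was on both lists. Gucy1b3 ranked 149 among the 15033 other genes by nearness to Gucy1a3, and Gucy1a3 ranked 621 by nearness to Gucy1b3. In the aorta the same ranks were 1775 and 406 of 14795. Renal Prkg1 lay nearest to Pde10a, Nid1 and Gm16340, Pde5a to Padi2, Gulp1 and Mzt1, Nos3 to Dkk2, Eno2 and Ehbp1l1, Nos2 to Fam198b, Trim30a and Wasf3, and Nos1 to Tiam2, Gm26621 and Hoxaas3.

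The other marker lists had few calls for diet in the aorta. All 6 smooth muscle markers tested had a positive sign with a median of 0.28 but 0 were called, and their summed level was lowest in the adipocyte-rich aortae WT-SFD 1 (10670 FPM), KO-SFD 1 (11540 FPM) and WT-SFD 2 (13270 FPM), beside 15940 to 19170 FPM in the other 11. Of 9 endothelial markers 1 was called lower, and of 7 pericyte and mesangial, 6 fibroblast, 7 leucocyte, 5 nerve and Schwann cell, 2 skeletal muscle and 5 red blood cell markers 0 were called. Of 2 tested proximal tubule markers 1 was called lower, in a list led by Cyp2e1 and with Slc22a6 at 0, and of 2 tested macula densa and renin cell markers 0 were called, with Akr1b7 and Umod at 0. The 5 red blood cell markers, led by Hbb-bt, all had a positive sign with a median of 1.19, and their summed level was 28.5 and 13.7 FPM in WT-SFD 1 and 2 and 22.2 FPM in KO-SFD 1, beside 170.5 to 833.2 FPM in the other 11 aortae. These are the same 3 aortae that held the lowest Gucy1b3 and Gucy1a3, the most adipocyte and the least smooth muscle transcript. The part of smooth muscle and blood content in the aortic levels of Gucy1b3, Gucy1a3, Pde5a, Npr1 and Calm3 was not tested. In the kidney 1 of 6 proximal tubule markers was called higher on HFD, and 0 of 3 nerve and Schwann cell, 1 skeletal muscle and 5 red blood cell markers were called, with Th at 0.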

How the data were processed

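The deposited files hold raw counts per gene, 1 table per tissue. Per the labels and the study's methods, the authors depleted ribosomal RNA, trimmed paired reads (cutadapt for the aortae), aligned them with TopHat to mm10 and counted genes with featureCounts. Kidneys were sequenced and their reads trimmed elsewhere, by a company. Strand and multiply mapped reads are not given in the sources used here. The tables held 0 further columns of sample values. Each tissue was fitted separately with edgeR 4.0.16 (filterByExpr, TMM, quasi-likelihood test, 4 groups, Benjamini-Hochberg over all tested genes, threshold 0.05), and DESeq2 1.42.0 was an alternative. FPM are counts per 1000000 after TMM scaling, and length is the merged exon length of GENCODE vM21. The subunit ratio used 0.5 added counts. Scripts were tested on simulated data. Alternatives covered scaling, filter, gene set, groups fitted, each library left out, adipocyte transcripts as covariate, and the 2 adipocyte-poor SFD aortae (WT-SFD 3 and KO-SFD 3) left out together. The kidney covariate was added after seeing the data.

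Members, lists and alternatives were chosen with earlier results of these data known. Named beside the members were pathway genes called in any comparison, the 2 with the smallest p in each averaged comparison, the 3 genes nearest in profile to each member, and the most abundant gene and genes at 0 of marker lists, of which the text gives those that bear on a result. A gene that this rule names is not reported here. Of 165 listed genes 16, among them Gucy1a2, Pts, Rhoa, Trpc6, Cdh5, Tagln and Cnn1, lie in regions where these tables hold no counts and were not analysed here. RefSeq promoter windows matched 5 of 7 members. Nothing in the labels ties mice to litters or batches, so p-values measure the spread between these mice. Counting error is smallest for the abundant genes, and values under about 20 counts, as for Nos1 and Nos2, are imprecise.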

Additional observations from a re-analysis of the deposited data

Results flagged for a closer look

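Of 101 groups of 4 libraries examined for a single library far from the others, 8 held one by Dixon's ratio, where chance flags about 1 in 20 groups. For Nos2 and Guca2a the other 3 libraries were tied at 0, so that any count is marked and that rate does not apply. In the aorta Nos2 was at 0.384 FPM in WT-HFD aorta 4 and at 0 in the other 3. KO-HFD aorta 2 stood out for 3 genes, with Pde5a at 175.5 FPM beside 221.0 to 227.2, Calm3 at 233.4 FPM beside 208.8 to 210.8, and Guca2a at 0.0939 FPM, which is 1 count, beside 0. In the kidney Gucy1a3 was low in WT-SFD kidney 3 at 12.4 FPM beside 14.3 to 14.7, and Prkg1 was low in KO-SFD kidney 2 at 0.162 FPM beside 0.710 to 0.723. Pde5a was high in KO-HFD kidney 4 at 7.04 FPM beside 4.81 to 4.98, and that kidney also held the highest Gucy1a3 and Gucy1b3 of all 16. Calm2 was low in WT-SFD kidney 4 at 101.4 FPM beside 116.1 to 118.6. The cause was not tested for any of them.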

How the results depend on the processing

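Without WT-SFD aorta 3 and KO-SFD aorta 3 together, 3 members (Nos2, Gucy1b3 and Pde5a) were called in the aorta for HFD against SFD in WT and 3 for the averaged diet effect, beside 13% and 15.8% of all genes in that fit, where leaving out 1 aorta at a time gave 0 to 3 and 0 to 2. In the kidney the averaged diet effect called 2 members with DESeq2 (6.31% of the genes it adjusted, as for each DESeq2 share here), 0 with the adipocyte covariate (3.75% of all genes), and 0 to 2 with 1 kidney left out. Every other count of members called stayed as reported under the alternatives run.

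Among the other pathway genes, HFD against SFD in WT aortae called 1 with library totals in place of TMM (1.48% of all genes), 1 with no low count filter (1.96%), 13 without those 2 aortae (13%), 3 with DESeq2 (4.07%) and 0 to 12 with 1 aorta left out, and in KO aortae 3 without those 2 aortae (3.99% of all genes). The averaged aortic diet effect called 1 with library totals (4.01%), 0 with the adipocyte covariate (0.0203% of all genes), 16 without those 2 aortae (15.8%), 6 with DESeq2 (6.12%) and 0 to 10 with 1 aorta left out. In the kidney HFD against SFD called 1 in WT with DESeq2 (1.58%) and 0 to 1 with 1 kidney left out, and in KO 2 with library totals (2.32%), 2 with DESeq2 (4.13%), 0 with only the 2 groups fitted (1.57%), 0 with the adipocyte covariate (2.01%) and 0 to 1 with 1 kidney left out.

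With the adipocyte covariate the aortic diet effect changed sign for Nos2 (0.28 in WT and 0.43 averaged), Nos3 (0.14), Prkg1 (-0.081) and Pde5a (-0.22). Leaving out 1 library gave ranges that crossed 0 for the averaged diet effect on Pde5a (-0.0076 to 0.29), Nos3 (-0.16 to 0.0090) and Prkg1 (-0.026 to 0.078) in the aorta and Nos1 (-0.19 to 0.0037) in the kidney. The log2 ratio of Gucy1a3 to Gucy1b3 changed with diet by -0.25 to -0.099 in the aorta and -0.031 to 0.14 in the kidney. The cause was not tested.

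Single fold changes were followed for members with an unadjusted p under 0.05, for all members in the averaged diet effect and for the named pathway genes, a choice made after seeing the data. Over all members and comparisons, 34 of 367 aortic and 5 of 322 renal values changed sign under the alternatives other than leaving out 1 library, and 42 of 686 and 50 of 784 when 1 library was left out. None of these was called before or after. No paired analysis was possible because the labels number mice and no number is shared between groups of a tissue. The SFD aortae hold 3 mice per genotype, of which 1 and 1 were poor in adipocyte transcripts. For most SFD aortae diet and adipocyte RNA therefore cannot be told apart. In the kidneys the summed adipocyte markers differed between the diets without overlap, so diet and that sum cannot be told apart there either. Low counts limit Nos1, Nos2 and renal Prkg1.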
